A study of Mus musculus with 32 samples.

Results

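The 6 genes described here encode chemokines of the CXC class (Cxcl1, Cxcl2, Cxcl10, Cxcl12 and Cxcl16) and the single CX3C chemokine, Cx3cl1. They were taken by name: every probe whose target name, ignoring case, was one of these symbols. That gave 10 probes, 8 of which passed the detection filter, and each of the 6 genes kept at least 1 probe. The arrays carried 17877 distinct gene names, of which 9475 were tested.

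The arrays, Illumina MouseRef-8 V2, measured total RNA from the right cortex and the right striatum, which the labels call infarct tissue, of Gpx1-/- mice on a C57/Bl6 background aged 8 to 10 weeks. Gpx1 encodes glutathione peroxidase 1, an enzyme that removes hydrogen peroxide, and all 8 groups carry the deletion, so every comparison is between Gpx1-/- animals. In 3 groups per region the middle cerebral artery was blocked with a suture for 2 h and the tissue was taken 2, 8 or 24 h after the suture was withdrawn (reperfusion). The sham group of each region received anaesthesia and a neck incision only. Each group had 4 arrays, 32 in all, and the numbers 1 to 4 below are replicate numbers. The growth protocol speaks of male WT mice, while the titles, the genotype labels and the treatment protocol give Gpx1-/-. The labels do not say that each array is a separate mouse, so the p-values measure the spread between these samples.

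Chemokines are small secreted proteins that direct the movement of leukocytes through G-protein-coupled receptors. Cxcl1 and Cxcl2 act on CXCR2 and draw neutrophils. Cxcl10 is induced by interferons and acts on CXCR3 of activated T cells and natural killer cells. Cxcl12 acts on CXCR4 and ACKR3 and is made at rest by brain endothelium and other cells. Cxcl16 and Cx3cl1 are made as membrane proteins with a mucin stalk, and proteases release a soluble form. Cxcl16 binds CXCR6. Cx3cl1, or fractalkine, is made by neurons in the brain and binds CX3CR1 on microglia.

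The stretches of 250 bases upstream of the RefSeq gene starts (GRCm38.p6) are printed for Cxcl1, Cxcl2 and Cxcl10, because these 3 promoters hold matches to the inflammatory motifs searched and the genes rose in the injured tissue. Capitals mark every match on either strand to GGGA, any 4 bases and CC, a pattern like the binding site of NF-kappaB, a transcription factor of inflammation, and to GAAA, any 2 bases and GAAA, a pattern like the interferon response element. Sequences read 5′ to 3′ on the gene's strand.
Cxcl1, chr5:90890995-90891244, plus strand: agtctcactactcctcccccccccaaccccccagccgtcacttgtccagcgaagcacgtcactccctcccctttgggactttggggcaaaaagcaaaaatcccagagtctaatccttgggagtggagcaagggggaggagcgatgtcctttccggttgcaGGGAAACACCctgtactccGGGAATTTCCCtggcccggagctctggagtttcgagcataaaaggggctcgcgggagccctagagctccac
Cxcl2, chr5:90903649-90903898, plus strand: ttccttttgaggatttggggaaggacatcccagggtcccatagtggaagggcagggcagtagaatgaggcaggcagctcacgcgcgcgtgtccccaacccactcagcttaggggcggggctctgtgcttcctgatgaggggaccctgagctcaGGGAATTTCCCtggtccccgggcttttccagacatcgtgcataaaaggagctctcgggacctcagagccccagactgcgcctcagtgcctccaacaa
Cxcl10, chr5:92348890-92349139, minus strand: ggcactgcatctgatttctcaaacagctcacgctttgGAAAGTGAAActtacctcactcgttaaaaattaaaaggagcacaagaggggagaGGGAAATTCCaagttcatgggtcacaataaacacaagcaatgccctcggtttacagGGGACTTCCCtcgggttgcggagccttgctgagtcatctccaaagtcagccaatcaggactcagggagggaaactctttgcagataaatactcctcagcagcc
Cxcl1 and Cxcl2 share the run GGGAATTTCCC, which begins 71 bases before the start in Cxcl1 and 97 bases before it in Cxcl2. Cxcl1 has a second kappaB-like match that begins 90 bases before the start. Cxcl10 has kappaB-like matches that begin 159 and 103 bases before the start, and it alone of the 5 chemokine windows searched has the interferon-response-like match, 213 bases before the start. The windows of Cxcl12 and Cx3cl1 hold neither pattern, which says only that these letters are not in these windows. No window was available for Cxcl16, which also rose, so its promoter was not searched. Whether the patterns go with a rise across these chemokines was not tested. Of 32851 promoter windows of this length in the same table, 17.6% hold the kappaB-like pattern, 2.18% hold it in 2 or more separate places, and 2.98% hold the interferon-response-like pattern. A match is a description of the sequence, and the arrays did not measure binding.

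The detection p was under 0.01 for 10701 to 11935 of 25697 probes an array (41.6% to 46.4%), and the median signal of an array before normalization ran from 60.1 to 92.4. Cortex 24 h array 1 and cortex 8 h array 4 stood apart from their groups. On the second principal component they lay at -3.9 and -0.5, against 18 to 37.4 and 12.5 to 15.4 for the other arrays of their groups. The striatum arrays also held hypothalamic transcripts: the neuropeptide gene Pmch was detected on all 16 of them, and it read 9.71 on cortex 8 h array 2 against 4.75 to 5.76 on the other arrays of that group. Of 5 hypothalamic markers tested, 5 were higher in sham striatum than in sham cortex. Of 7 striatal neuron markers 1 was higher in sham striatum than in sham cortex, and of 8 cortical neuron markers 6 were lower. The Gpx1 probe read 8.78 to 10.45 (log2), and with no wild-type arrays and its place relative to the disruption not known here, it does not check the genotype. Each array slide held the 4 conditions of 1 region at fixed positions, so position and condition cannot be told apart, nor can slide and region. Differences within a slide are given beside those between groups.

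Signals below are log2 values after background correction and quantile normalization. A difference was called when its limma p, adjusted over all 9475 genes, was under 0.05. Against sham, the 4 chemokines Cxcl1, Cxcl2, Cxcl10 and Cxcl16 accounted for every rise called, Cxcl12 for every fall called, and Cx3cl1 was not called at any time. In the cortex, 1 of 6 was higher at 2 h (2.21% of all genes were), 3 at 8 h (9.58%) and 4 at 24 h (15.7%), while 0, 1 and 1 were lower (2.45%, 10.6% and 17.6% of all genes). In the striatum, 1 was higher at 2 h (3.49%), 1 at 8 h (12.4%) and 3 at 24 h (14.7%), and none was lower (2.81%, 12.8% and 16.2%). The count at 8 h in the striatum was thus close to the share over all genes. The median difference over the 6 genes was 0.34, 0.95 and 1.30 in the cortex at 2, 8 and 24 h and 0.66, 0.69 and 1.19 in the striatum, where the median over all genes was -0.013, -0.015, -0.011, 0.001, -0.007 and -0.026. In the cortex 3, 3 and 2 of the 6 had every injured array above every sham array at 2, 8 and 24 h (9.01%, 9.78% and 13.8% of all genes did), and 0, 1 and 1 had every one below (9.96%, 11.7% and 15.7%). In the striatum these counts were 4, 2 and 4 above (9.84%, 12.1% and 13.8%) and 0, 1 and 0 below (9.08%, 11.9% and 14.2%). Several of the groups above sham were mostly undetected. At 2 h Cxcl2 was detected on 1 of 4 arrays in each region. Cxcl16 was then detected on none in the cortex and on 1 in the striatum. Striatal Cxcl10 at 2 h and striatal Cxcl2 at 8 and 24 h were detected on 1 of 4. Cxcl1, Cxcl2, Cxcl10 and Cxcl16 were detected on no sham array, so they passed the filter through injured arrays. Without the pair of cortex arrays that stood apart, a choice made after seeing the data, 5 of 6 were called in the cortex at 8 h and 4 at 24 h. Of all 9475 genes, 2197 and 3562 were then called. Cortex 8 h array 4 was the lowest of its group for all 4 rising genes and cortex 24 h array 1 for 3. Leaving them out therefore favours calls of a rise.

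**Figure D1:**
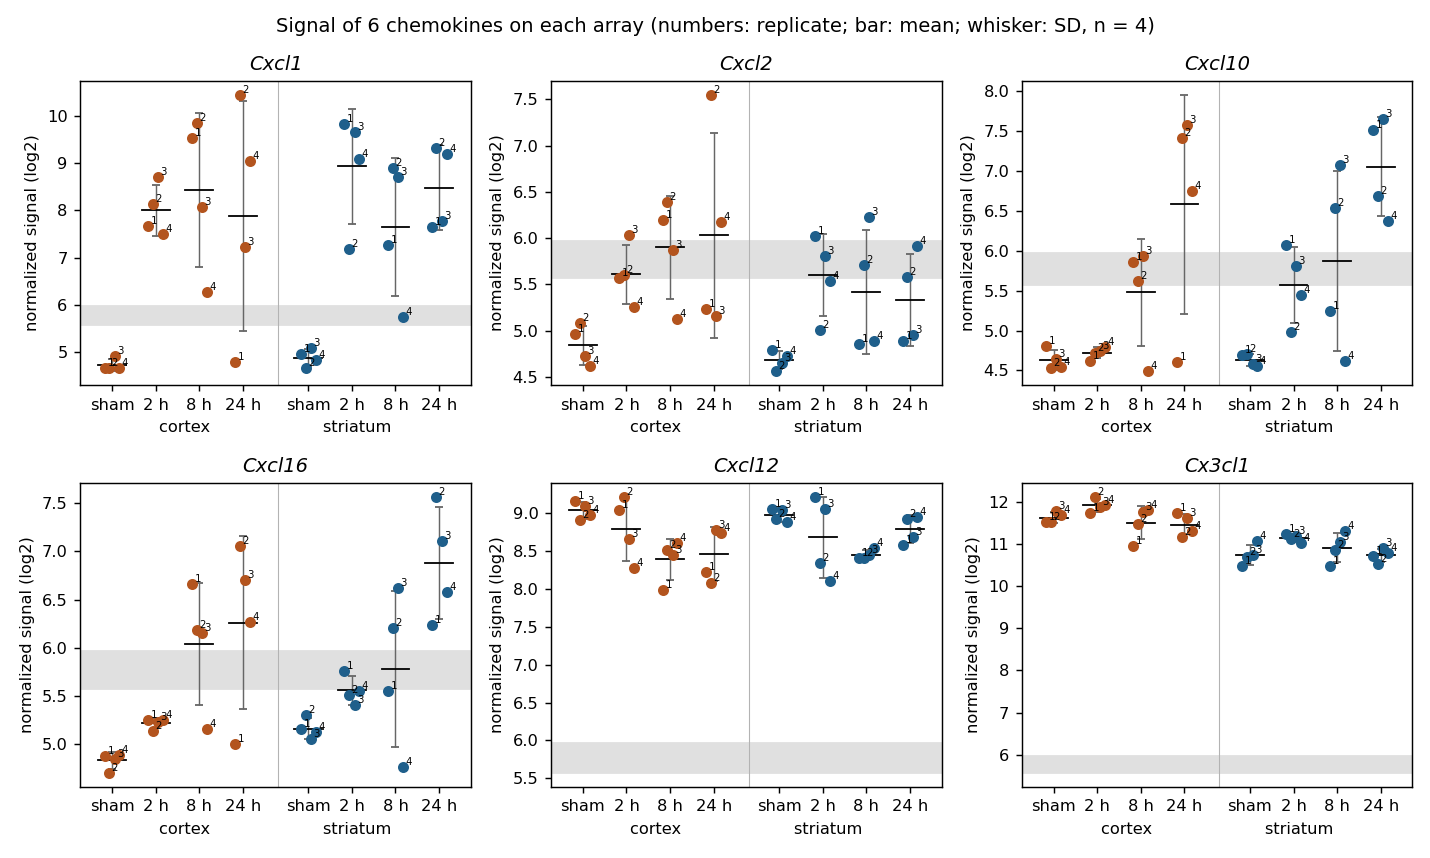
Normalized signal (log2, vertical axis, scaled for each gene) of the 6 chemokines on each of 32 arrays, by region and time; points are arrays with their replicate number, bars are means and whiskers are SD (n = 4). The grey band spans the lowest detected signals of the arrays, 5.57 to 5.97: sham points of Cxcl1, Cxcl2, Cxcl10 and Cxcl16 lie under it, while Cxcl12 and Cx3cl1 lie above it on every array.

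Cxcl1 was not detected on any sham array and rose at every time in both regions. In the cortex it read 4.66, 4.65, 4.92 and 4.66 on sham arrays 1 to 4, 7.67, 8.13, 8.70 and 7.49 at 2 h, 9.53, 9.85, 8.08 and 6.28 at 8 h, and 4.79, 10.45, 7.23 and 9.05 at 24 h. All arrays at 2 and 8 h lay above all sham arrays, whereas at 24 h array 1 lay among the sham values and the other 3 above them. In the striatum it read 4.95, 4.66, 5.08 and 4.83 in sham, 9.84, 7.18, 9.66 and 9.08 at 2 h, 7.27, 8.89, 8.71 and 5.73 at 8 h, and 7.64, 9.33, 7.77 and 9.19 at 24 h. Every injured striatum array lay above every sham array, and array 4 at 8 h was the lowest of them.

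The differences of Cxcl1 from sham were 3.28, 3.71 and 3.16 in the cortex at 2, 8 and 24 h (SE 0.84 each, adjusted p = 0.0239, 0.0031 and 0.00508). In the striatum they were 4.06, 2.77 and 3.60 (adjusted p = 0.00587, 0.0164 and 0.00182). Where a gene was detected on no sham array, its fold is a lower bound: the injured group's mean is set against the mean, over the sham arrays, of the lowest detected signal on the array or the gene's own signal if higher. On that basis Cxcl1 was at least 4.65-fold, 6.29-fold and 4.29-fold higher in the cortex, and at least 9.67-fold, 3.95-fold and 7.03-fold higher in the striatum. Within slides the injured array was above the sham array on 4 of 4 slides in each of the 6 comparisons, by 0.13 to 5.80 in the cortex at 24 h and by 2.83 to 3.78 at 2 h.

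The calls of Cxcl1 were not equally firm. In the cortex at 2 h the adjusted p was 0.0598 to 0.0798 when sham array 1, sham array 2, 2 h array 2 or 2 h array 3 was left out, 0.0673 when the regions were fitted apart, and 0.0504 without background correction. In the striatum at 8 h it was 0.0565 without array 2 and 0.0609 without array 3. At 24 h in the striatum the highest adjusted p with any 1 array left out was 0.00973. It was 0.0137 and 0.0386 in the cortex at 8 and 24 h, and 0.0276 in the striatum at 2 h.

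Cxcl2, the near neighbour of Cxcl1 on chromosome 5 and a ligand of the same receptor, was much nearer to background: it was detected on 9 of 32 arrays, none of them sham. In the cortex it read 4.96, 5.08, 4.72 and 4.62 in sham, 5.57, 5.60, 6.03 and 5.25 at 2 h, 6.20, 6.39, 5.87 and 5.13 at 8 h, and 5.23, 7.55, 5.16 and 6.17 at 24 h. Striatal Cxcl2 read 4.79, 4.56, 4.65 and 4.73 in sham, 6.02, 5.01, 5.81 and 5.54 at 2 h, 4.86, 5.71, 6.23 and 4.89 at 8 h, and 4.89, 5.58, 4.95 and 5.92 at 24 h. No injured group overlapped its sham group, though several injured arrays lay just above the highest sham value and most were not detected.

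Cxcl2 was called in the cortex at 8 h, with a difference of 1.05 ± 0.37 (SE, adjusted p = 0.044, at least 1.08-fold higher), and at 24 h, with 1.18 (adjusted p = 0.0154, at least 1.19-fold higher). The call at 24 h rested on array 2, which read 7.55: without it the difference was 0.68 (adjusted p = 0.121). The call at 8 h was lost when any of 7 of the 8 arrays was left out (highest adjusted p = 0.125) and held without array 4. With all arrays kept it was also lost with no detection filter (adjusted p = 0.0884) and with the regions fitted apart (adjusted p = 0.0802). The differences of 0.77 at 2 h in the cortex, and of 0.91, 0.74 and 0.65 in the striatum, did not pass (adjusted p = 0.227, 0.133, 0.145 and 0.192).

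Cxcl10, the interferon-induced chemokine, was called at 24 h in both regions and at no earlier time. In the cortex it read 4.81, 4.53, 4.64 and 4.54 in sham, 4.62, 4.72, 4.74 and 4.79 at 2 h, 5.86, 5.62, 5.93 and 4.49 at 8 h, and 4.60, 7.41, 7.57 and 6.75 at 24 h. The 2 h values were the same as those of sham to within their range, array 4 at 8 h was below every sham array, and array 1 at 24 h lay among the sham values. Striatal Cxcl10 read 4.69, 4.70, 4.58 and 4.56 in sham, 6.07, 4.98, 5.81 and 5.44 at 2 h, 5.25, 6.53, 7.07 and 4.62 at 8 h, and 7.51, 6.69, 7.65 and 6.37 at 24 h. At 2 h and at 24 h every striatum array was above sham, and at 8 h array 4 was among the sham values.

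The difference of Cxcl10 at 24 h was 1.95 ± 0.47 in the cortex (SE, adjusted p = 0.00248, at least 1.75-fold higher) and 2.42 in the striatum (adjusted p = 0.000357, at least 2.62-fold higher). Both held with any 1 array left out, with adjusted p of at most 0.0158 and 0.002. Without array 1 the cortex difference was 2.62. At 2 h it was 0.09 in the cortex (adjusted p = 0.939) and 0.94 in the striatum (adjusted p = 0.225). At 8 h it was 0.85 in the cortex (adjusted p = 0.209) and 1.24 in the striatum (adjusted p = 0.055). With 1 array left out the cortex value at 8 h ranged from 0.70 to 1.17 (adjusted p = 0.089 to 0.395), and it passed only without both arrays that stood apart, a choice made after seeing the data (1.17, adjusted p = 0.0226). The striatum value at 8 h ranged from 0.84 without array 3 (adjusted p = 0.233) to 1.65 without array 4 (adjusted p = 0.0156). With all arrays kept, its adjusted p was 0.0444 with the slide as a block, 0.0245 scaled to the 75th percentile and 0.0324 in the authors' values. It was 0.0418 with the regions fitted apart, 0.00512 with array weights and 0.104 with no detection filter. With array weights the striatum value at 2 h passed too (adjusted p = 0.028).

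Cxcl16, which as a membrane protein also takes up oxidised lipoprotein, was called at 8 and 24 h in the cortex and at 24 h in the striatum. In the cortex it read 4.88, 4.70, 4.85 and 4.89 in sham, 5.25, 5.14, 5.23 and 5.25 at 2 h, 6.66, 6.18, 6.15 and 5.16 at 8 h, and 5.0, 7.06, 6.70 and 6.27 at 24 h. All injured cortex arrays lay above all sham arrays, but 8 h array 4 and 24 h array 1 only by a little. Striatal Cxcl16 read 5.16, 5.30, 5.05 and 5.13 in sham, 5.76, 5.51, 5.41 and 5.55 at 2 h, 5.55, 6.21, 6.62 and 4.76 at 8 h, and 6.24, 7.57, 7.11 and 6.58 at 24 h. The striatum groups at 2 and 24 h were above sham throughout, while at 8 h array 4 fell below every sham array.

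The difference of Cxcl16 was 1.21 ± 0.35 at 8 h in the cortex (SE, adjusted p = 0.0154, at least 1.20-fold higher), 1.43 at 24 h in the cortex (adjusted p = 0.00251, at least 1.39-fold higher) and 1.72 at 24 h in the striatum (adjusted p = 0.000488, at least 2.31-fold higher). The 8 h cortex call had an adjusted p of 0.0593 without array 1. The 2 h differences of 0.39 and 0.40 and the 8 h striatum difference of 0.63 did not pass (adjusted p = 0.558, 0.521 and 0.189), and with 1 array left out the last ranged from 0.35 (adjusted p = 0.528) to 0.97 without array 4 (adjusted p = 0.0443). From 8 to 24 h in the striatum, where 7.87% of all genes were called, Cxcl16 was the only one of the 6 called, with a rise of 1.09 (adjusted p = 0.0496). Cxcl10 differed by 1.19 over the same interval, was higher at 24 h on 4 of 4 slides and did not pass (adjusted p = 0.125). The call of Cxcl16 was lost under 4 alternatives, among them the scaling to the 75th percentile, and in 5 of 8 fits that left out 1 array.

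**Figure D2:**
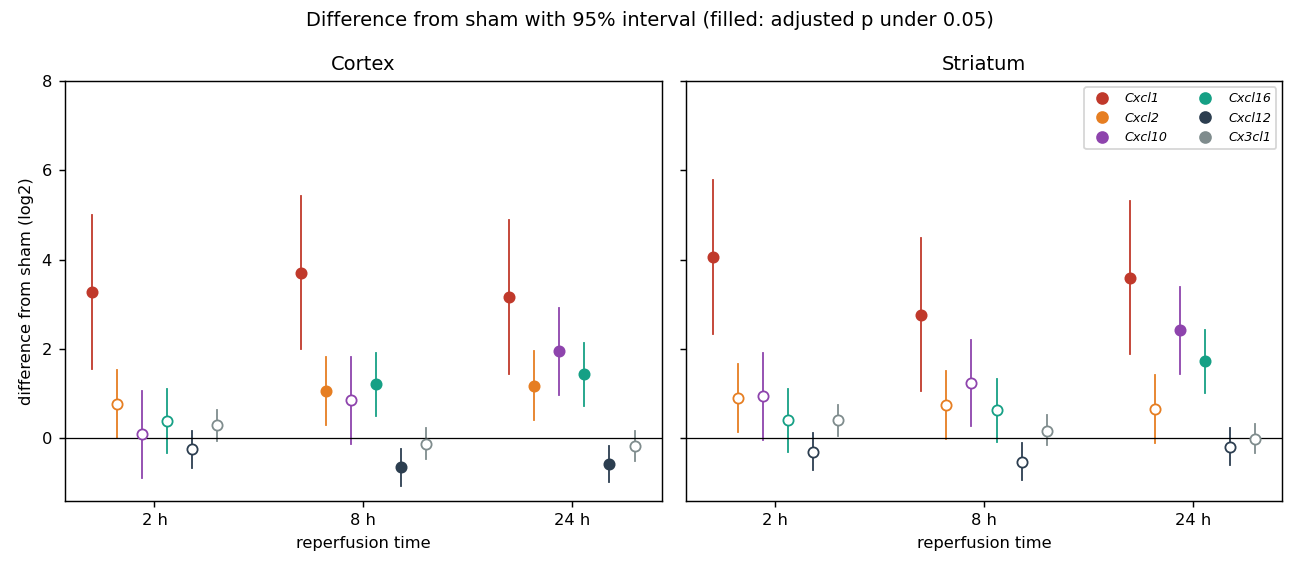
Difference from sham (log2, vertical axis) of each chemokine at 2, 8 and 24 h of reperfusion in the cortex and the striatum, with 95% intervals from the limma fit; filled points had an adjusted p under 0.05. Cxcl1 is filled at all 6 points, Cxcl10 at 24 h in both regions, and Cx3cl1 at none.

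Cxcl12, which holds leukocytes and progenitors through CXCR4, was the only one of the 6 that fell. Its brightest probe was detected on all 32 arrays. In the cortex it read 9.16, 8.91, 9.10 and 8.98 in sham, 9.04, 9.21, 8.66 and 8.27 at 2 h, 7.99, 8.51, 8.45 and 8.61 at 8 h, and 8.22, 8.08, 8.78 and 8.74 at 24 h. The 8 and 24 h arrays were all below the sham arrays, and the 2 h arrays overlapped them. In the striatum it read 9.06, 8.92, 9.04 and 8.89 in sham, 9.22, 8.34, 9.05 and 8.11 at 2 h, 8.41, 8.41, 8.45 and 8.54 at 8 h, and 8.58, 8.93, 8.69 and 8.95 at 24 h. The 8 h striatum arrays were all below sham and close to each other, while the 2 h arrays split into a higher and a lower pair.

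In the cortex Cxcl12 fell by 0.65 at 8 h (SE 0.20, adjusted p = 0.0239, 1.56-fold lower) and by 0.58 at 24 h (adjusted p = 0.0267, 1.5-fold lower). Both calls were near the threshold. At 8 h the adjusted p was 0.0516 to 0.0903 without sham array 1, sham array 3 or 8 h array 1, and at 24 h it was 0.056 to 0.115 without sham array 1, sham array 3, 24 h array 1 or 24 h array 2. With all arrays kept, the 24 h call was lost with no detection filter (adjusted p = 0.0523) and with array weights (-0.40, adjusted p = 0.088). In the striatum the differences were -0.30, -0.53 and -0.19 at 2, 8 and 24 h (adjusted p = 0.391, 0.0548 and 0.496), and the 8 h value passed under 4 alternatives. Of the other Cxcl12 probes, a pair matched to other transcript accessions passed the filter, with differences from sham of -0.08 to 0.36 in the 6 comparisons and no call, so the fall was seen on 1 probe of 3. A further pair was detected on no array.

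Cx3cl1 was detected on all 32 arrays, and none of its 6 differences from sham passed the test. With array weights the striatum difference at 2 h was 0.47 and did pass (adjusted p = 0.0043). In the cortex it read 11.51, 11.52, 11.78 and 11.68 in sham, 11.74, 12.12, 11.87 and 11.92 at 2 h, 10.96, 11.47, 11.76 and 11.79 at 8 h, and 11.73, 11.15, 11.60 and 11.30 at 24 h. In the striatum it read 10.48, 10.68, 10.73 and 11.07 in sham, 11.24, 11.11, 11.18 and 11.02 at 2 h, 10.48, 10.85, 11.04 and 11.30 at 8 h, and 10.72, 10.53, 10.89 and 10.79 at 24 h. All 6 injured groups overlapped sham.

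The differences of Cx3cl1 from sham were 0.29, -0.12 and -0.18 in the cortex (95% intervals -0.05 to 0.63, -0.46 to 0.22 and -0.51 to 0.16). In the striatum they were 0.40, 0.17 and -0.01 (95% intervals 0.06 to 0.74, -0.16 to 0.51 and -0.34 to 0.33). The adjusted p ranged from 0.138 to 0.983, and the intervals leave room for changes of the sizes they span. In sham tissue, where 34.0% of all genes differed between the regions, Cx3cl1 was the 1 gene of the 6 that did: striatum minus cortex was -0.88 (SE 0.16, adjusted p = 0.000106, 1.84-fold lower), with every sham striatum array below every sham cortex array. No slide held both regions, so this difference cannot be told apart from one between slides. By their brightest probes the other 5 differed by -0.16 to 0.33 between the sham groups (adjusted p = 0.504 to 0.998). On the pair of other Cxcl12 probes that passed the filter the difference was -0.47 (adjusted p = 0.0313), which passed, and -0.37 (adjusted p = 0.116). The same limit of slides holds for these.

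The response of the 6 genes was not shown to differ between striatum and cortex. None of the 6 was called in the test of the striatal minus the cortical difference at 2, 8 or 24 h (limma, adjusted p = 0.767 to 0.998), none had an unadjusted p under 0.05, and 0%, 0% and 0.0633% of all genes were called there. For Cxcl1 the 95% interval of that difference at 24 h ran from -1.99 to 2.87, and for Cxcl10 from -0.90 to 1.84. From 2 to 8 h and, in the cortex, from 8 to 24 h, none of the 6 was called either (2.93% of all genes from 2 to 8 h and 8.11% from 8 to 24 h in the cortex, and 1.53% from 2 to 8 h in the striatum). At an unadjusted p under 0.05 there were 2, 1 and 0 of 6 in these steps.

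The rising genes tended to be low together on the same arrays. In the cortex, array 4 at 8 h was the lowest of its group for all 4 of Cxcl1, Cxcl2, Cxcl10 and Cxcl16, and array 1 at 24 h for 3 of them. In the striatum, array 4 at 8 h was lowest for 3 of the 4, and its summed signal of 7 striatal neuron markers was 9407, against 2107, 3584 and 2732 on arrays 1 to 3 of that group and 5335 to 6769 in sham. That array's part in the 8 h results was not tested beyond leaving it out. Striatum array 1 at 2 h was highest for all 6 chemokines. As differences from the sham mean of the region over the 32 arrays, which share condition and slide, Cxcl1 and Cxcl2 had Pearson r = 0.87, Cxcl10 and Cxcl16 r = 0.86, and Cxcl1 and Cxcl10 r = 0.63. Cxcl12 and Cx3cl1 had r = 0.26.

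**Figure D3:**
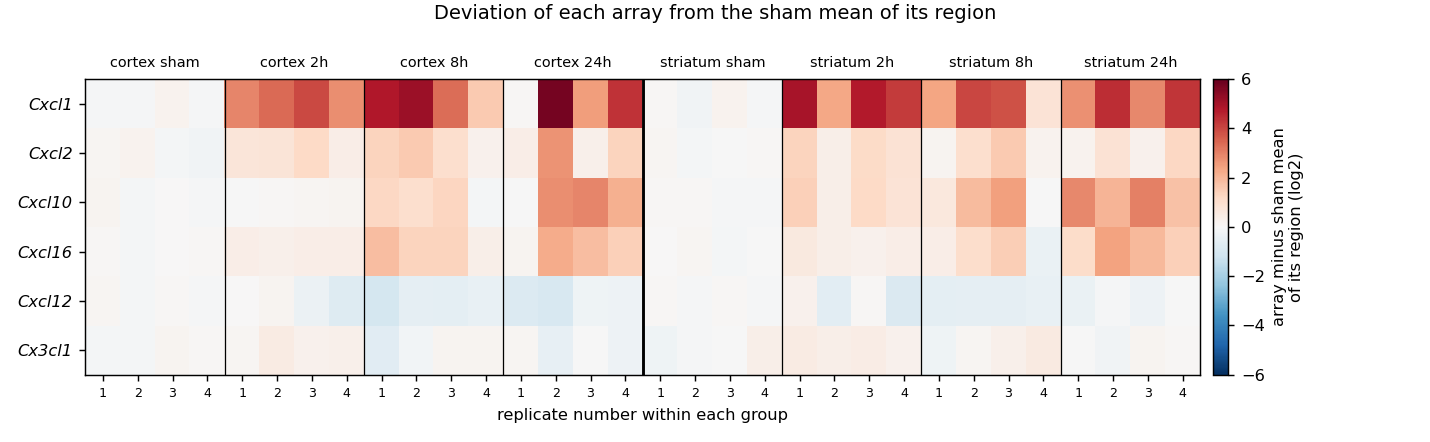
Signal of each of the 32 arrays minus the sham mean of its region (log2, colour scale from -6 to 6) for the 6 chemokines, with arrays in columns by group and replicate number. Cortex 8 h array 4 and cortex 24 h array 1 are pale for the 4 rising genes beside the other arrays of their groups, and the row of Cx3cl1 is pale throughout.

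On the same measure over 32 arrays, the genes most like Cxcl1 were Zfp36, whose protein promotes decay of cytokine mRNAs (r = 0.95), Ier3, an immediate early gene (r = 0.94), and Osm, the cytokine oncostatin M (r = 0.94). Those most like Cxcl2 were Adamts1, a secreted protease, Plaur, the urokinase receptor (both r = 0.87), and Osm (r = 0.85). Cxcl10 was followed most closely by Usp18, a protease that removes ISG15 (r = 0.95), and by Gpr84, a receptor of myeloid cells, and Rsad2, the antiviral protein viperin (both r = 0.91). For Cxcl16 they were Lgals3, or galectin-3 (r = 0.95), and Dab2, an endocytic adaptor, and Pdlim4 (both r = 0.94). Cxcl12 had no close match: Tek, the angiopoietin receptor of endothelium, led with r = 0.76, then Gpr34 (r = 0.75) and Ganab (r = 0.74). For Cx3cl1 they were Dmtn, an actin-binding protein (r = 0.92), Pld3 (r = 0.88) and Exd2 (r = 0.86).

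Of 9 CXC and CX3C receptor genes, only the 2 detected widely could be tested: Cx3cr1, the microglial receptor of Cx3cl1, and Ackr1, which binds chemokines of several classes without signalling. Cx3cr1 read 8.90, 8.72, 8.72 and 8.41 in sham cortex and 7.90, 7.98, 7.62 and 7.11 at 8 h, and it read 8.44, 8.29, 8.33 and 8.11 in sham striatum and 6.71, 7.78, 7.09 and 6.64 at 8 h. All 8 h arrays were below all sham arrays in both regions. It fell by 1.03 in the cortex (SE 0.21, adjusted p = 0.00151, 2.05-fold lower) and by 1.24 in the striatum (adjusted p = 0.000172, 2.36-fold lower). At 24 h it was 0.18 above sham in the cortex (adjusted p = 0.549) and had risen by 0.76 in the striatum (adjusted p = 0.00698, 1.70-fold higher). Ackr1 rose by 0.40 at 24 h in the striatum (adjusted p = 0.0372) and was not called elsewhere against sham. Of these 2 receptors, both were called higher in the striatum at 24 h, but only 1 was without array 1 or 2 of sham striatum or array 2 or 4 of the 24 h group. Cxcr2, the receptor of Cxcl1 and Cxcl2, was detected on 1 array, at 24 h in the cortex, Cxcr4 on 1 sham striatum array, and Cxcr1, Cxcr3, Cxcr5, Cxcr6 and Ackr3 on none.

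Of 10 other CXC ligands, Pf4 and Cxcl14 were tested and the other 8 were detected on too few arrays. Cxcl14, a ligand present in the resting brain, read 9.74 to 10.08 in sham cortex and 8.48 to 9.16 at 24 h, with no overlap. It fell by 0.52 at 8 h and 0.95 at 24 h in the cortex (adjusted p = 0.00327 and 2.67e-06), and by 0.71 and 0.68 in the striatum (adjusted p = 0.000147 and 0.000122). Pf4, the platelet chemokine, was detected on no sham array and rose by 1.33 at 24 h in the cortex (adjusted p = 0.0299, at least 1.55-fold higher, with array 1 below every sham array) and by 2.13 in the striatum (adjusted p = 0.0011, at least 2.76-fold higher). A list of proteases known to shed or cut chemokines also held the inhibitor Timp1. Of its 8 tested genes, 4 were higher and none lower at 24 h in each region, Timp1 among those higher. Timp1, an inhibitor of metalloproteases, rose by 4.20 in the cortex (adjusted p = 3.91e-07, 18.4-fold higher) and, from no detected sham array, at least 30.7-fold in the striatum (adjusted p = 1.86e-09). Mmp3, stromelysin, was detected on no sham array and was at least 2.57-fold higher in the cortex and at least 5.14-fold higher in the striatum (adjusted p = 0.000741 and 3.99e-05). Dpp4, the peptidase that trims Cxcl10 and Cxcl12, was at least 1.26-fold lower at 8 h in the cortex, where no array detected it (adjusted p = 0.0103).

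NF-kappaB regulators and inflammatory targets were called from 2 h onward. Of 12 tested, 2, 7 and 5 were higher in the cortex at 2, 8 and 24 h and 0, 0 and 1 lower, and 5, 5 and 8 were higher in the striatum with 0, 0 and 1 lower. The list medians were 0.48, 0.67 and 0.56 in the cortex and 0.66, 0.73 and 0.81 in the striatum. Zfp36 rose by 2.09 at 2 h in the cortex and 2.07 in the striatum (adjusted p = 0.00466 and 0.00587), and Nfkbia, which encodes the inhibitor of NF-kappaB, by 1.04 at 2 h in the cortex (adjusted p = 0.00357). With 1 array left out, the number of these genes called higher in the cortex ranged from 4 to 8 at 8 h and from 2, without array 2 of the 24 h group, to 6 at 24 h. In the striatum at 2 h it ranged from 3 to 5.

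Interferon pathway genes were called mostly at 24 h, the time at which Cxcl10 was called. Of 19 tested, 0, 2 and 14 were higher in the cortex and 1, 3 and 12 in the striatum at 2, 8 and 24 h, and 1 was lower, in the cortex at 8 h. The medians were 0.10, 0.48 and 0.98 in the cortex and 0.20, 0.35 and 1.05 in the striatum. At 24 h Gbp2, a guanylate-binding protein, rose by 1.51 in the cortex and 1.98 in the striatum (adjusted p = 0.011 and 0.00147). Rsad2 in the cortex was at least 1.76-fold higher (adjusted p = 0.0167) and Usp18 in the striatum at least 2.98-fold higher (adjusted p = 0.000437), neither of them detected on a sham array of that region. With 1 array left out, the cortical counts ranged from 1 to 6 at 8 h (1 without array 2 and 6 without array 4 of that group) and from 7, without array 4 of the 24 h group, to 14 at 24 h. Without both cortex 8 h array 4 and cortex 24 h array 1, chosen after seeing the data, they were 9 at 8 h and 14 at 24 h. In the striatum they ranged from 1 to 5 at 8 h and 12 to 13 at 24 h, and were 0 at 2 h with any 1 of the 8 arrays left out. These lists were chosen with results of these data known, so their counts are a description. Il1b, Ccl2, Relb and Tnfaip3 of the NF-kappaB list and Rsad2 and Usp18 of the interferon list were detected on no sham array. Such genes passed the filter through injured arrays, so the counts lean towards rises. The shares of all genes called are those given with the chemokine counts.

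**Figure D4:**
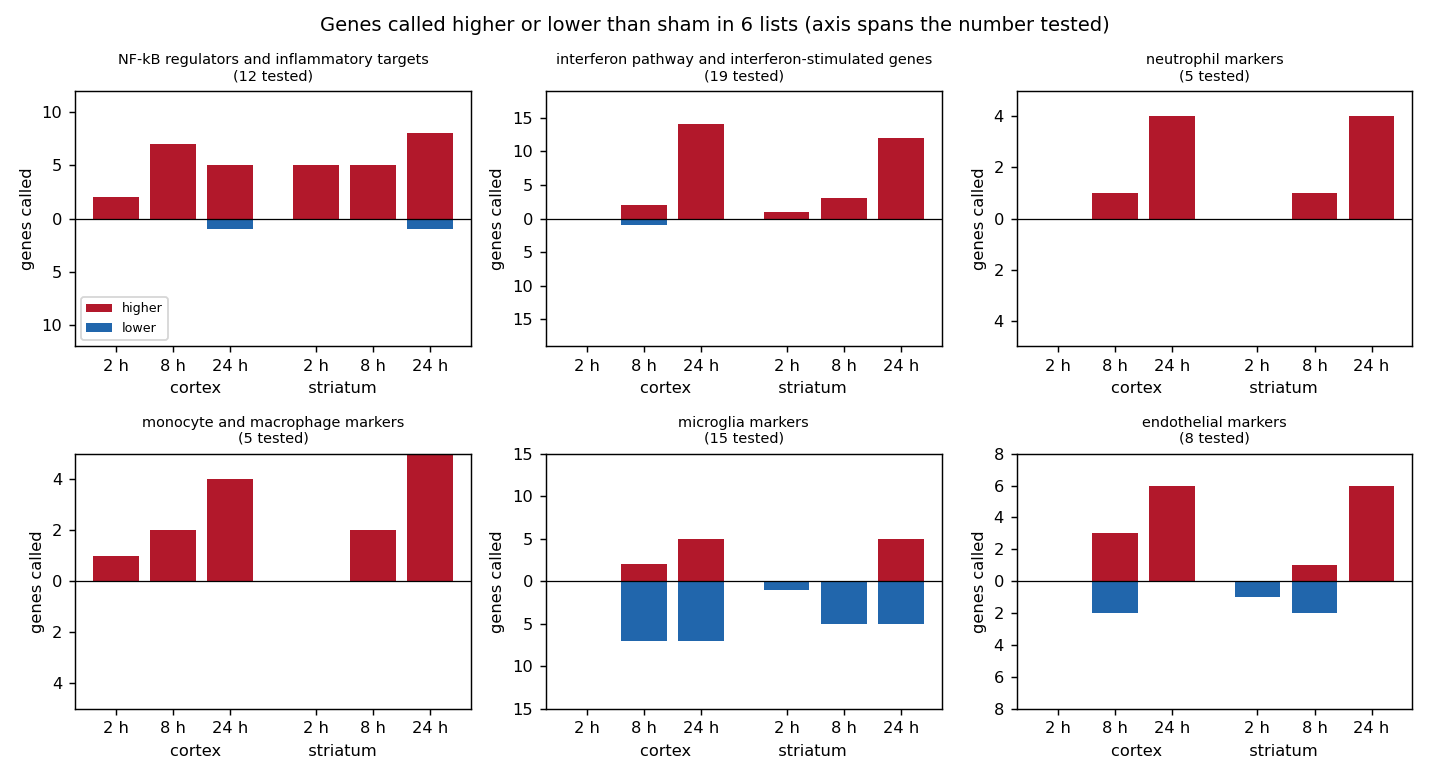
Number of genes called higher (upward bars) or lower (downward bars) than sham at each time in the cortex and the striatum, for 6 lists of genes; each vertical axis spans the number tested. Interferon genes reach 14 and 12 of 19 at 24 h, and microglia markers are called in both directions.

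Markers of incoming and resident cells moved in the same samples. In bulk tissue, a change in the number of cells and a change in RNA per cell cannot be told apart. Of 5 neutrophil markers tested, 0, 1 and 4 were higher in the cortex and 0, 1 and 4 in the striatum at 2, 8 and 24 h. Their summed normalized signal ran from 213 to 564 in sham cortex, 569 to 1550 at 2 h, 961 to 3857 at 8 h and 459 to 9458 at 24 h, where array 1 had the lowest value. In the striatum it ran from 259 to 401 in sham, 654 to 1505 at 2 h, 1059 to 1759 at 8 h and 1755 to 5770 at 24 h. S100a8, a calprotectin subunit, rose by 3.42 at 24 h in the cortex and 3.67 in the striatum (adjusted p = 0.00536 and 0.00313), while the granule genes Mpo, Elane, Camp and Mmp8 were detected on no array. The summed signal did not follow every marker from 2 to 8 h. Mean S100a8 was 8.91 and 7.05 at these times in the striatum, and 8.59 and 7.93 in the cortex. Mean S100a9 was 7.43 and 5.75 in the striatum, and 7.17 and 6.47 in the cortex. Lcn2 was detected on all 32 arrays, sham included, and in the striatum at 8 h it made up most of the sum. S100a8 there read at most 7.62 (log2) and S100a9 at most 6.07. Csf3r and Retnlg were detected on no sham array and on none at 8 h in the striatum. They passed the filter through injured arrays.

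Of 5 monocyte and macrophage markers, 1, 2 and 4 were higher in the cortex and 0, 2 and 5 in the striatum. Chil3 and Arg1 were detected only at 24 h, and Plac8 on no sham array and on none at 8 h. They passed the filter through injured arrays, so these counts lean towards rises. At 8 h Lgals3 and Cd14 were the only ones of the 5 detected. The summed signal of the 5 markers was 180 to 217 in sham cortex and 477 to 747, 268 to 3086 and 279 to 4107 at 2, 8 and 24 h. In the striatum it was 211 to 232 in sham and 418 to 749, 329 to 1879 and 1755 to 5627 at these times. The low ends at 8 h were array 4 in both regions, and at 24 h in the cortex array 1, the arrays on which Cxcl10 and Cxcl16 were lowest. Ccr2, a defining receptor of inflammatory monocytes, was detected on no array. Of 13 lymphocyte markers only Cd3e, a subunit of the T cell receptor complex, passed the filter. It was detected on no sham array and was called higher at 8 h in the striatum (at least 1.19-fold, adjusted p = 0.000286) and at 24 h in the cortex and the striatum (adjusted p = 0.0226 and 0.031), where it was detected on 1 and 0 arrays. Cd4, Cd8a and Ncr1 were detected on no array.

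Of 15 microglia markers, 2 were higher and 7 lower at 8 h in the cortex, and 0 higher and 5 lower in the striatum. At 24 h these counts were 5 and 7 in the cortex and 5 and 5 in the striatum. P2ry12, a purine receptor of resting microglia, fell by 1.52 at 8 h in the cortex and 1.20 in the striatum (adjusted p = 0.000331 and 0.00125), the times at which Cx3cr1 was low. Their summed signal was 4712 to 4999 in sham cortex and 4286 to 5384 at 8 h, and 4152 to 4396 in sham striatum and 3403 to 4571 at 8 h. Of 8 endothelial markers, 3 were higher and 2 lower at 8 h in the cortex, where Cxcl12 fell, and 6 were higher and none lower at 24 h, with a summed signal of 2292 to 2596 in sham, 2673 to 3580 at 8 h and 2687 to 5126 at 24 h. Tek fell by 0.97 at 8 h in the cortex (adjusted p = 0.00319). Of 8 cortical neuron markers, 4 were lower at 24 h in the cortex, and their summed signal went from 10537 to 13525 in sham to 6961 to 9331 at 24 h, with no overlap. The part of these cell markers in the chemokine results was not tested.

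Haemoglobin transcripts also moved with the times: Hba-a1, an alpha-globin gene whose near-identical copy may share the probe, rose by 4.29 at 2 h in the cortex and 3.85 in the striatum (adjusted p = 0.0177 and 0.0275), the time at which Cxcl1 was the only chemokine of the 6 called. Hba-a1 was also called at 24 h in the striatum, by 2.84 (adjusted p = 0.0382). The summed signal of 3 erythroid markers was 221 to 542 in sham cortex and 2658 to 13990 at 2 h. At 8 and 24 h in the cortex it was 509 to 7779 and 332 to 14461. In the striatum it was 225 to 2210 in sham, 2754 to 9184 at 2 h, 294 to 1153 at 8 h and 448 to 12561 at 24 h. The part of this signal in the chemokine results was not tested.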

How the data were processed

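Per the file headers, the deposited intensity values are average bead signals exported from BeadStudio without normalization. The detection value deposited beside each is a fraction from 0 to 1 that is high for detected probes, and the detection p-value used here is 1 minus that deposited value. The authors' series table, whose values are a linear ratio to the sham mean of the region, served as an alternative. It and the table of raw intensities carry the replicate numbers in mirrored order for 32 of 32 arrays, with groups unaffected, and 192 per-sample columns were not used.

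Signals were background-corrected with detection p-values and quantile-normalized (neqc, offset 16, limma 3.58.1, R 4.3.3). A probe stayed in (12758 did) if its detection p was under 0.01 on 4 or more of the 32 arrays, and each gene took its brightest probe, 9475 genes in all. Names came from RefSeq accessions for 23876 of 25697 probes. An 8-group limma fit with Benjamini-Hochberg adjustment over all genes was used, checked on simulated data. The members and gene lists were chosen with earlier results of these data known. Named beside the members are all receptors and other CXC ligands, up to 3 called genes per list and comparison, and the 3 genes most correlated with each member. Dependence on slide, normalization, filter, probe choice, array weights and single arrays was tried. Replicate numbers name slides, read from the array codes of the labels, a batch that holds all 4 conditions. Deviations of arrays on 1 slide correlated from -0.27 to 0.35 (48 pairs, median 0.11, 27 over 0.1), against a median of -0.04 across slides of a region (144 pairs, 21 over 0.1). Same-numbered cortex and striatum arrays of a condition had a median of 0.19 (16 pairs, 12 over 0.1). The fit reported has no block, and fits with it are given where a call changes. Intensities carry no read depth, and 4 arrays a group limit the precision.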

Additional observations from a re-analysis of the deposited data

Results flagged for a closer look

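On the sham cortex arrays Cxcl1 read 4.92 on array 3 against 4.65 to 4.66 on the other 3, a gap that is 0.966 of the range of the group. All 4 values were below detection. This was 1 of 48 such tests of a highest or lowest array, and about 1 in 20 groups would be singled out by chance.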

How the results depend on the processing

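At 24 h in the striatum 3 of the 6 were called under every alternative and with any 1 array left out, and Cxcl1, Cxcl10 and Cxcl16 at 24 h in the cortex likewise. The same held for Cxcl1 at 8 h in the cortex and at 2 h in the striatum. Where the count of called chemokines moved by over 1.5 times, the cause was not tested unless arrays were left out. In the cortex at 2 h the count was 0 without background correction or with separate fits of the regions, and 2 when arrays were weighted. Of all 9475 genes, 495, 209 and 1660 were called in these fits, against 209 higher and 232 lower in the fit reported. In the striatum at 2 h the count was 4 with array weights (Cxcl1, Cxcl2, Cxcl10 and Cx3cl1). That fit called 2478 of 9475 genes, against 331 higher and 266 lower in the fit reported. In the striatum at 8 h the count was 2 with the slide as a block, scaled to the 75th percentile or without background correction. These fits called 2656, 2409 and 2425 of 9475 genes. The count was 3 in the authors' processed values or with each region alone (3344 and 2348 genes), and 5 with array weights (2985 genes). The fit reported called 1171 genes higher and 1217 lower. From 8 to 24 h in the striatum the count was 0 scaled to the 75th percentile or with array weights (640 and 434 genes called). It was also 0 with no detection filter (702 of 17877 genes) or with every detected probe as its own row (699). The fit reported called 746. From 8 to 24 h in the cortex the count was 1 with array weights, where 989 genes were called against 768 in the fit reported. Leaving out cortex 24 h array 1 and cortex 8 h array 4 together, chosen after seeing the data, gave 1 from 2 to 8 h and 1 from 8 to 24 h in the cortex. Of all genes, 548 and 1206 were called there, against 278 and 768 in the fit reported. The replicate block on the slide gave Cxcl10 in the striatum at 8 h a difference of 1.24 (adjusted p = 0.0444) and changed no other call of the 6 genes against sham, between times or in the regional differences. The slide as a random block, run on the sham groups only, and same-numbered arrays of both regions as a block, run on the sham groups and the regional differences, changed none of theirs.

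With 1 array left out, the count ranged from 0 to 1 in the cortex at 2 h, 1 to 4 at 8 h and 3 to 5 at 24 h. It ranged from 0 to 3 in the striatum at 8 h, 0 to 1 from 8 to 24 h in the cortex and 0 to 2 in the striatum. In these comparisons, leaving out 1 array takes a group to 3.

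None of the differences that changed sign was called. Cx3cl1 was 0.00 in the striatum at 8 h in the authors' values, and 0.09 at 24 h with array weights. Cxcl2 from 8 to 24 h in the cortex was -0.33 with array weights. The striatal minus cortical difference at 2 h was 0.01 for Cxcl12 in the authors' values and with array weights. For Cxcl16 it was -0.09 scaled to the 75th percentile, -0.02 without background correction and -0.04 in the authors' values. At 24 h it was -0.04 for Cxcl10 and -0.03 for Cxcl16 with array weights, and -0.59 for Cxcl1, -0.19 for Cxcl10 and -0.13 for Cxcl16 without the pair of cortex arrays.

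With 1 array left out, Cx3cl1 against sham ranged from -0.22 to 0.06 in the cortex at 8 h and from -0.09 to 0.10 in the striatum at 24 h. From 2 to 8 h, Cxcl1 ranged from -0.03 to 1.15 in the cortex, and in the striatum Cxcl2 from -0.44 to 0.02, Cxcl10 from -0.11 to 0.71 and Cxcl16 from -0.05 to 0.57. From 8 to 24 h in the cortex, Cxcl1 ranged from -1.41 to 0.48, Cxcl2 from -0.37 to 0.42, Cxcl12 from -0.07 to 0.19, Cxcl16 from -0.07 to 0.64 and Cx3cl1 from -0.23 to 0.05, and Cxcl2 in the striatum from -0.28 to 0.18. The striatal minus cortical difference at 2 h ranged from 0.00 to 0.33 for Cxcl2, -0.23 to 0.14 for Cxcl12 and -0.05 to 0.06 for Cxcl16. At 8 h it ranged from -0.01 to 0.80 for Cxcl10 and -0.01 to 0.19 for Cxcl12. At 24 h it ranged from -0.59 to 1.30 for Cxcl1, -0.19 to 0.80 for Cxcl10 and -0.13 to 0.56 for Cxcl16. Cxcl10 between the sham groups ranged from -0.03 to 0.06. Cxcl1, Cxcl2, Cxcl10 and Cxcl16 were under detection in sham, so their fold changes are bounds.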
